A study of Mus musculus with 9 samples.

Results

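The RNA of 10 genes for the kinases, adaptors and phosphatase that act directly below the B cell antigen receptor was followed in cultured mouse B cells. These were Blk, Lyn, Fyn, Lck, Syk, Btk, Blnk, Plcg2, Pik3cd and Ptpn6. They were chosen by name, with earlier results of these data known. Each matched 1 Ensembl ID among the 48795 in the count files, and all 10 were among the 15546 genes with enough counts to be tested. The cells were splenic follicular B cells, selected on CD23 from C57BL/6 mice with both Yy1 alleles floxed (yy1 f/f), so the control cells carry the floxed alleles too. The 3 tatcre libraries came from cells given TAT-CRE, a cell-permeable Cre recombinase, to delete Yy1, and the 3 mock libraries from cells given a mock treatment. Both kinds of culture received LPS and IL-4, for 48 hours in 20% serum by the sample text and for 72 hours in 10% serum by the series text. That text names 3 mice whose spleens were divided over the treatments, and the labels do not tie libraries to single mice. The p-values therefore rest on the spread between libraries, which may be partly technical. Exposure to the recombinase and loss of Yy1 cannot be told apart in this design.

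When the antigen receptor is engaged, Src family kinases such as Lyn, Blk and Fyn phosphorylate the cytoplasmic tails of its signaling chains, and the kinase Syk docks there and becomes active. Syk phosphorylates the adaptor BLNK, which brings together the kinase BTK and the phospholipase PLCγ2, the source of the second messengers for calcium and protein kinase C. The PI3-kinase catalytic subunit p110δ, encoded by Pik3cd, makes the membrane lipid that recruits BTK. The phosphatase SHP-1, encoded by Ptpn6, binds inhibitory receptors such as CD22 and CD72 and opposes these steps. Lck is best known as the Src kinase of T cells and is also expressed in some mouse B cells.

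The promoter windows of the members are shown because the deleted factor binds DNA. In tatcre cells 8 of the 10 members were called lower, against 16.3% of all genes tested. At the levels of the members that share ran from 18.5% to 30.2%, and not all of the 8 calls held in other settings. Whether YY1 binds at these windows was not tested. The set of promoter windows used (GRCm38.p6) held windows, from 250 bases before to 50 bases after a start, for 8 of the 10 members. There were 12 in all, since Lck, Syk and Pik3cd have several starts. Blk and Lyn had no window in that set, so their promoters were not searched. Each window was searched on both strands for CCATNTT, the core of the YY1 motif, and for the longer GCCATNTT, which contains it. The short form was found in 2 of the 12 windows, the upstream one of Lck and that of Btk, and the long form in none. Among all 32851 windows of 300 bases, 16.1% held the short form and 6.05% the long form. Printed 5′ to 3′ with matches in capitals are the 2 windows with a match and the upstream window of Syk, which had none:
Lck, upstream window, chr4:129573592-129573891, minus strand: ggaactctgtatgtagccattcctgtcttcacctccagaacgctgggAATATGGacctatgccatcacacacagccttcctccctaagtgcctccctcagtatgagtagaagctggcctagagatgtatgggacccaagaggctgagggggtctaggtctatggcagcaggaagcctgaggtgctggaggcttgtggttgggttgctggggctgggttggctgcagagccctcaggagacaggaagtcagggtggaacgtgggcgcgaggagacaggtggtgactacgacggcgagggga
Btk, chrX:134583091-134583390, minus strand: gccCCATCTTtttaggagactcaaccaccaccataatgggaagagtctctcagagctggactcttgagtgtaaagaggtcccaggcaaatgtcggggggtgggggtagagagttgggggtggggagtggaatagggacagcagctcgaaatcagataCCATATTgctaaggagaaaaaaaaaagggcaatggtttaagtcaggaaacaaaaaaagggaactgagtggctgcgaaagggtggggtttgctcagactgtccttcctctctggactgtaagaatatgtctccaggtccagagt
Syk, upstream window, chr13:52583187-52583486, plus strand: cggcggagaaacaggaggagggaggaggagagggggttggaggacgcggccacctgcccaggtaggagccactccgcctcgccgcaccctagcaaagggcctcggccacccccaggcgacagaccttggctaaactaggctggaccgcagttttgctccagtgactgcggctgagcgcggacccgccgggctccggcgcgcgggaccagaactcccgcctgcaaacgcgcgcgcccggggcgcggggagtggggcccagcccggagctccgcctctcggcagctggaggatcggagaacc
In the Lck window the match began at base 48 of 300 and is the reverse complement of the motif, and in Btk the matches began at bases 4 and 158 and read as printed. Base composition also varied, with G and C making up 58.3% of the Lck window, 49.3% of the Btk window and 72% of the Syk window. Among the genes of these windows, Lck and Syk were called lower in tatcre cells and Btk was not called, with values given further on. No match says only that these letters are missing from the window.

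Library totals ran from 22729187 to 24471132 gene counts in tatcre and from 24842380 to 28230727 in mock cells. Yy1 had 24, 36 and 50 counts in the tatcre libraries, against 2655, 3018 and 2542 in the mock libraries, so the loss of its RNA showed in every library labelled tatcre. Levels are given in CPM, counts scaled to the library total multiplied by its factor from the TMM method. These factors were 1.02 to 1.06 in tatcre and 0.946 to 0.991 in mock libraries. B cell markers were abundant in sum in every library. Of 9 defining genes 5 were called lower and 4 were not called, against 16.3% of all genes tested called lower. The genes did not move alike. Fcer2a averaged 753 CPM in tatcre and 1152 CPM in mock cells, and Cd79b, not called, 423 and 371 CPM in the same order. The 9 genes added to 4280 to 4360 CPM in tatcre and 5211 to 5522 CPM in mock cells. Their summed level was thus lower in tatcre cells beside the members described next, and its part in those results was not tested. Plasma cell markers summed to 633 to 695 CPM in tatcre and 812 to 851 CPM in mock cells. Of the 5 tested, Irf4 and Jchain were called lower, and Sdc1, Prdm1 and Xbp1 were not called. Irf4 alone averaged 327 CPM in tatcre and 441 CPM in mock cells. All markers of NK and erythroid cells stayed under 1 CPM. Fewer genes had a count in mock 3, 20420, than in any other library (at least 21875). In bulk RNA, fewer cells of a type and less RNA per cell cannot be told apart.

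All 10 members stood lower in tatcre cells. For 8 the difference passed the test, and none was called higher. Since the members were chosen with earlier results of these data known, this count is only a description. Over all genes tested, 27.1% were called, 16.3% lower and 10.8% higher, by the same test, which is edgeR's quasi-likelihood test with Benjamini-Hochberg adjustment over all 15546 genes and a threshold of 0.05. Among genes with a mean log2 CPM of 6 to 8, as Syk, Btk, Blnk, Plcg2 and Pik3cd have, 24.2% were called lower. The share was 18.5% at 2 to 4, where Blk and Lck lie, 21.4% at 4 to 6, where Lyn and Fyn lie, and 30.2% at 8 or more, where Ptpn6 lies. The median log2 fold change was -0.49 for the 4 Src family members and -0.35 for the 6 downstream members, against 0.02 for all genes tested. That last value is not matched for level. The Src family members were far apart, from -1.64 for Blk to -0.11 for Lyn. Blk, Lck, Syk, Blnk and Ptpn6 were called lower in the reported fit and in all 12 alternative settings. The calls of Fyn, Plcg2 and Pik3cd were lost in several of them, so the count of members called lower was 5 with the replicate number as a block and 5 with library size alone as scaling. It was also 5 without tatcre 1, without tatcre 2 or without mock 2, and 6 or 7 without any other single library.

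**Figure D1:**
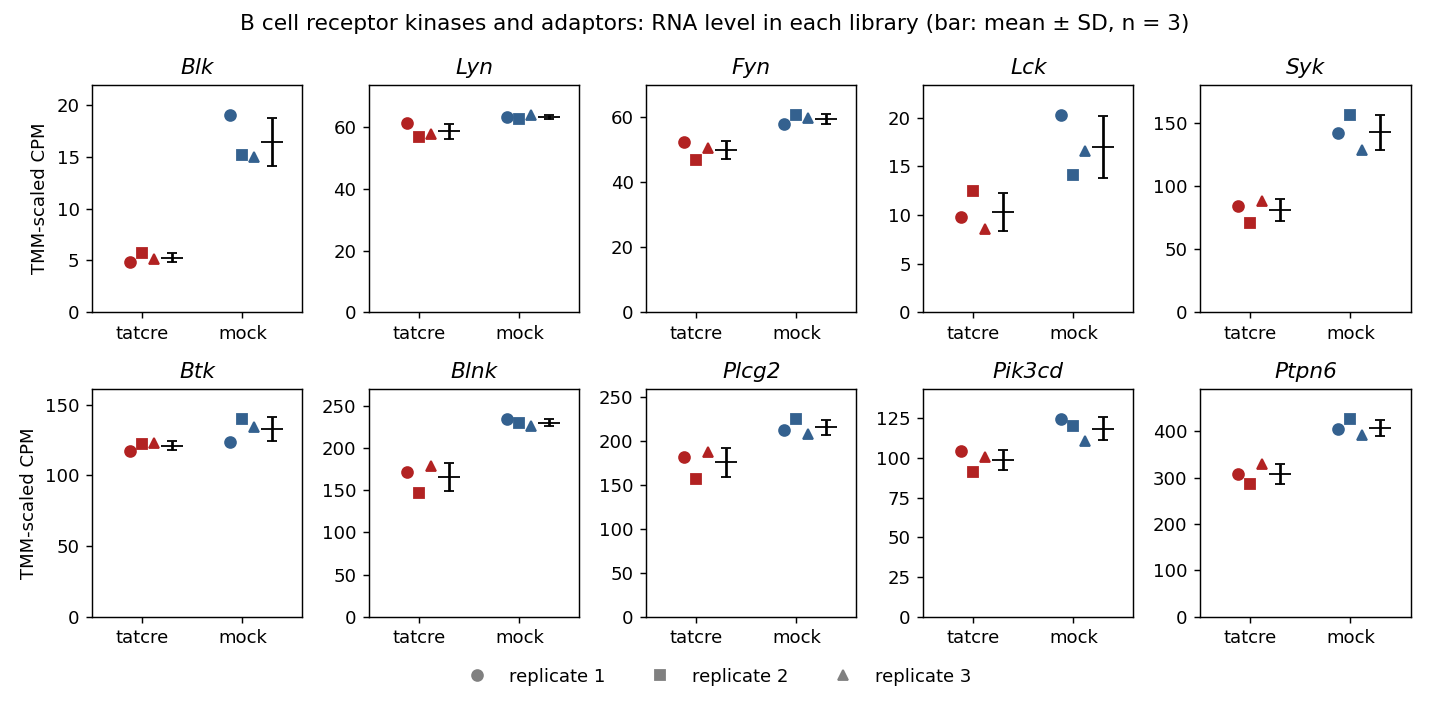
RNA level of each member, as TMM-scaled CPM on an axis from 0, in the 3 tatcre and 3 mock libraries, with marker shapes for the replicate numbers and the mean ± SD beside them. The tatcre points lie below the mock points in all 10 panels; the gap is widest relative to the level for Blk and narrow for Lyn and Btk.

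In CPM scaled by the TMM method, the 3 tatcre values lay below the 3 mock values for all 10 members. Among all genes tested the groups did not overlap for 44%, with tatcre lower for 23.3% and higher for 20.6%. The order is sensitive to scaling for the smallest differences. With library size alone Btk, Lyn and Pik3cd overlapped, which left 7 members, against 17.5% of all genes. Within the tatcre group, the tatcre 2 library held the lowest value for 7 members and the highest for 2, Blk and Lck. Within the mock group, mock 3 held the lowest value for 6 members.

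Among the members Blk had the largest fold change. Blk (ENSMUSG00000014453, chr14:63372837-63417187 in GRCm38) encodes a kinase made mainly in the B lineage. It had 4.88, 5.72 and 5.13 CPM in the tatcre libraries, against 19, 15.2 and 14.9 CPM in the mock libraries. Every tatcre value was under every mock value, and the lowest mock library exceeded the highest tatcre library by 9.23 CPM. Blk fell 3.12-fold (log2 fold change -1.64, SE 0.14, edgeR adjusted p = 2.2e-05), to a mean of 5.24 ± 0.432 CPM in tatcre cells against 16.4 ± 2.31 CPM in mock cells (SD, n = 3 each). Over the alternative settings its log2 fold change stayed between -1.72 and -1.52. A list of 8 markers of other B cell types, marginal zone and B-1 cells, was also summed. With TMM scaling the sums were 398 to 427 CPM in tatcre and 453 to 461 CPM in mock cells. Sums by library size alone were not taken. Of these markers 3 were called lower and 5 were not called, and their part in the fall of Blk was not tested.

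Lck (ENSMUSG00000000409, chr4:129548344-129573641) was the other Src family gene with a call in all settings. Its levels were 9.8, 12.5 and 8.62 CPM in tatcre cells, against 20.3, 14.1 and 16.6 CPM in mock cells. The groups did not overlap but came within 1.6 CPM of each other, between tatcre 2 and mock 2. Lck fell 1.65-fold (log2 fold change -0.72, SE 0.17, edgeR adjusted p = 0.0095), with means of 10.3 ± 1.98 CPM in tatcre and 17 ± 3.15 CPM in mock cells (SD, n = 3 each). Over the alternative settings the log2 fold change ranged from -0.88 to -0.57.

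Because Lck and Fyn are also T cell kinases, T cell markers were read in the same libraries. Of 16 markers, 12 stayed under 1 CPM in every library. Cd3e, for a chain of the T cell receptor complex, had 8, 12 and 8 counts in tatcre and 3, 4 and 0 counts in mock libraries. The partner chain gene Cd3d had 1 count in all 6 libraries together. The summed level of the list was 119 to 133 CPM in tatcre and 213 to 266 CPM in mock cells, most of it Thy1 and Cd2. Thy1, which activated mouse B cells can also express, had 108, 103 and 115 CPM in tatcre and 211, 239 and 189 CPM in mock libraries. Cd2 averaged 13.7 CPM in tatcre and 23.1 CPM in mock cells. Of the 6 markers tested, Thy1 and Cd2 were called lower and 4 were not called. Among these 4, Trac, for a T cell receptor chain, averaged 0.611 CPM in tatcre and 0.311 CPM in mock cells. The part of these markers in the Lck and Fyn values was not tested.

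Fyn (ENSMUSG00000019843, chr10:39369743-39565381), a kinase shared by B and T cells, had 52.3, 46.9 and 50.6 CPM in tatcre cells, against 57.8, 60.8 and 59.7 CPM in mock cells. The groups did not overlap, and the difference was small. Fyn fell 1.19-fold (log2 fold change -0.25, SE 0.08, edgeR adjusted p = 0.04). That call was lost whichever library was left out, with edgeR adjusted p from 0.0554 to 0.0968, and in the fit that blocks on replicate number (edgeR adjusted p = 0.0981). It was lost as well with upper-quartile factors and with library size alone as scaling.

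Lyn (ENSMUSG00000042228, chr4:3678068-3791612), the main Src kinase of B cells, which also starts inhibitory signaling, was not called. It had 61.3, 56.8 and 57.7 CPM in tatcre libraries, against 63.1, 62.5 and 64 CPM in mock libraries. The values lay close, with 1.18 CPM between the highest tatcre and the lowest mock library. The log2 fold change was -0.11 with a 95% interval from -0.28 to 0.06 (edgeR adjusted p = 0.32), and it was called in none of the alternative settings. A pseudogene with up to 250 counts in a library, Gm11805, lies within the span of Lyn, and the sources used here do not say how reads over both were counted. Markers of myeloid cells, which express Lyn too, were few. Of 15 such markers 12 stayed under 1 CPM and 7 had no count in any library. The rest was mainly Mpeg1 and Cd68, and the list summed to 31.4 to 34.8 CPM in tatcre and 48.9 to 53.5 CPM in mock cells.

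Of the 5 remaining Src family genes, 4 had enough counts to be tested and none was called. Yes1, broadly expressed, had 6.15, 10.8 and 7.38 CPM in tatcre and 4.16, 4.48 and 6.9 CPM in mock cells. Its groups overlapped, and its log2 fold change of 0.65 missed the threshold (edgeR adjusted p = 0.0731). Yes1 passed it as higher with library size alone (edgeR adjusted p = 0.0433), with no filter on low counts (edgeR adjusted p = 0.01) and without mock 3 (log2 fold change 0.89, edgeR adjusted p = 0.0212). The myeloid kinase gene Fgr averaged 3.28 CPM in tatcre and 3.28 CPM in mock cells. Src averaged 1.12 CPM in tatcre and 1.08 CPM in mock cells, and Frk was too low to test.

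To set the Src family members against each other, the log2 ratio of each pair's counts was taken within each library, where library scaling cancels. The ratio itself depends on gene lengths, so only its difference between tatcre and mock cells is read. Blk was lower relative to each of the other members. The log2 ratio of Blk to Lyn was -3.65, -3.31 and -3.49 in tatcre libraries, against -1.73, -2.04 and -2.1 in mock libraries, a difference of -1.52. The difference was -1.38 for Blk over Fyn and -0.91 for Blk over Lck. For these 3 pairs no tatcre library reached a mock library, and leaving out any 1 library kept the differences from -1.61 to -1.41, from -1.49 to -1.25 and from -1.02 to -0.83.

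The other pairs differed less. Lyn over Fyn was higher by 0.14 and Lyn over Lck by 0.61 in tatcre cells, without overlap. Fyn over Lck differed by 0.47 with overlapping libraries. Of the 6 pairs 5 did not overlap. The share was 43% of all pairs of tested genes and 52.2% of pairs in which both genes average a log2 CPM of 2 or more. The 6 pairs are made from 4 genes and 3 of the 5 hold Blk, so they are not separate observations and the count shows nothing about the family as a group. Each of the 5 pairs without overlap had an exact permutation p of 0.1 (two-sided), and Fyn over Lck had 0.2. With 3 libraries a group the smallest p this test can give is 0.1, so no pair could pass 0.05. Adjusted over the 6 pairs the exact permutation p-values were 0.12 and 0.2.

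**Figure D2:**
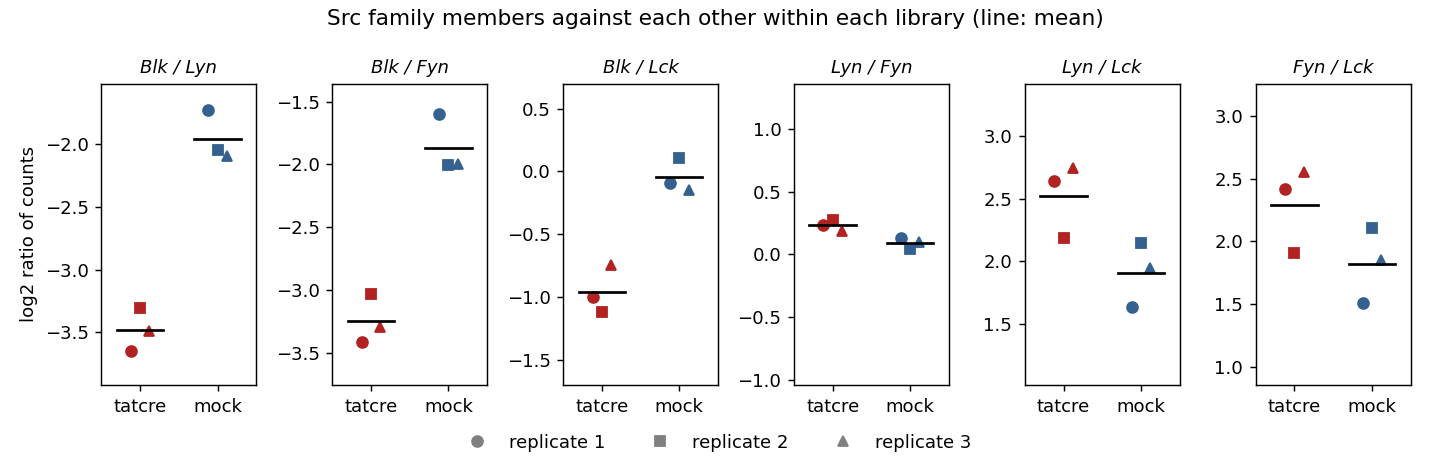
Log2 ratio of the counts of 2 Src family members within each library, tatcre left and mock right in each panel, with marker shapes for replicate numbers and a line at the group mean; all axes span the same range. The 3 ratios with Blk on top lie 0.91 to 1.52 lower in tatcre than in mock libraries, and the 3 other ratios lie 0.14 to 0.61 higher.

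Syk (ENSMUSG00000021457, chr13:52582610-52648792), the kinase that reads the phosphorylated receptor tails, changed most among the downstream members. Its levels were 84.7, 71.3 and 88.1 CPM in tatcre cells, against 143, 157 and 129 CPM in mock cells. The groups were 40.7 CPM apart at their nearest. Syk fell 1.76-fold (log2 fold change -0.81, SE 0.10, edgeR adjusted p = 0.00026), from -0.90 to -0.71 on the log2 scale over the alternative settings. Its T cell relative Zap70, named after its values were seen, was too low to test.

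Blnk (ENSMUSG00000061132, chr19:40928927-40994221), the scaffold on which BTK and PLCγ2 meet, had 172, 147 and 179 CPM in tatcre cells, against 235, 230 and 227 CPM in mock cells. The mock libraries lay close together, and the tatcre libraries spread more. Blnk fell 1.39-fold (log2 fold change -0.47, SE 0.09, edgeR adjusted p = 0.0022). The kinase gene Btk (ENSMUSG00000031264, chrX:134542334-134583628) had 117, 122 and 123 CPM in tatcre cells, against 124, 140 and 134 CPM in mock cells. These groups nearly met, tatcre 3 and mock 1 being 0.747 CPM apart. Btk was not called (log2 fold change -0.14, 95% interval -0.31 to 0.04, edgeR adjusted p = 0.22), nor was it in any alternative setting.

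Plcg2 (ENSMUSG00000034330, chr8:117498275-117635142) had 183, 157 and 188 CPM in tatcre cells, against 213, 226 and 209 CPM in mock cells. Its groups did not overlap. Plcg2 fell 1.23-fold (log2 fold change -0.30, SE 0.09, edgeR adjusted p = 0.026), a call lost without tatcre 1, tatcre 2 or mock 2 (edgeR adjusted p = 0.0521, 0.064 and 0.0837). Blocking on replicate number ended it too (edgeR adjusted p = 0.0626), as with library size alone. Plcg1, the relative best known from T cells, stood at 22.1 CPM in tatcre and 21.2 CPM in mock cells and was not called. It was named after its values were seen.

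Pik3cd (ENSMUSG00000039936, chr4:149649168-149702566) had 104, 91.5 and 100.4 CPM in tatcre cells, against 125, 120.4 and 111 CPM in mock cells. It fell 1.2-fold (log2 fold change -0.27, SE 0.08, edgeR adjusted p = 0.038). The call was lost with blocking on replicate number (edgeR adjusted p = 0.0779) and with upper-quartile factors or library size alone. Without any single library other than mock 3 it was lost too, with edgeR adjusted p from 0.0556 to 0.0986.

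Ptpn6 (ENSMUSG00000004266, chr6:124720707-124738709), for the phosphatase that counteracts these kinases, had 307, 287 and 329 CPM in tatcre cells, against 404, 427 and 392 CPM in mock cells. The groups were 62.9 CPM apart at their nearest. Ptpn6 fell 1.32-fold (log2 fold change -0.40, SE 0.08, edgeR adjusted p = 0.0031). The negative regulator was lower together with the kinases Blk, Lck and Syk and the adaptor Blnk.

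**Figure D3:**
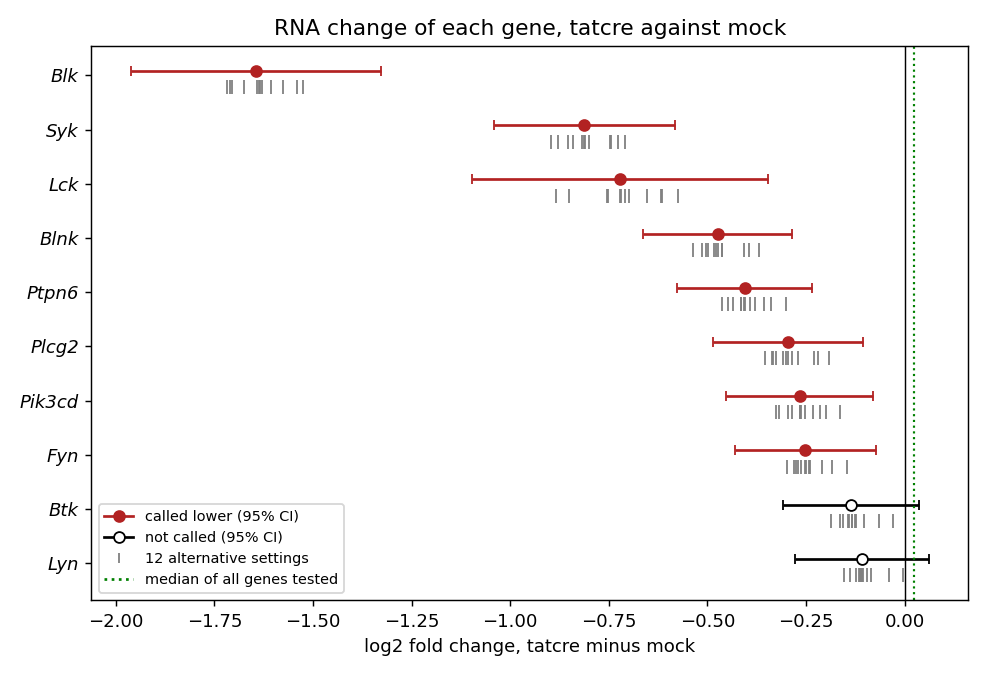
Log2 fold change of each member, tatcre minus mock, with its 95% interval from the edgeR fit (filled red, called lower; open black, not called). Grey ticks give the same value under the 12 alternative settings and the green dotted line the median of all genes tested, 0.02. All values lie left of 0, from -1.64 for Blk to -0.11 for Lyn, and the intervals of Btk and Lyn include 0.

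Each Src family member was also set against each downstream member by within-library ratios, 24 pairs in all. Blk was lower relative to all 6 downstream members, with differences in log2 ratio from -1.50 over Btk to -0.82 over Syk and no overlap of libraries. Lyn was higher relative to Syk by 0.70, to Blnk by 0.37, to Ptpn6 by 0.30 and to Plcg2 by 0.19, without overlap. Its ratio to Btk differed by 0.02 between the groups, with overlap. Fyn was higher relative to Syk by 0.56, to Blnk by 0.23 and to Ptpn6 by 0.15, again without overlap. Lck over Syk differed by 0.09, and all 6 ratios of Lck overlapped. In all, 13 of the 24 pairs did not overlap, a share close to the 52.2% of all gene pairs at such levels, so the count shows nothing about these pairs as a group. Each of the 13 was at the smallest exact permutation p of 0.1 (0.18 adjusted over the 24 pairs).

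Other genes of the pathway, 108 in 8 lists, changed in both directions. Of the 99 tested, 26 were called lower, 11 higher and 62 were not called, with a median log2 fold change of -0.04. In percent, 26.3% were called lower and 11.1% higher, against 16.3% and 10.8% of all genes tested. The share of all genes called lower depends on level, being 21.4% at a mean log2 CPM of 4 to 6 and 24.2% at 6 to 8. These lists were not matched for level, so the 26.3% is not read as an excess of falls.

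**Figure D4:**
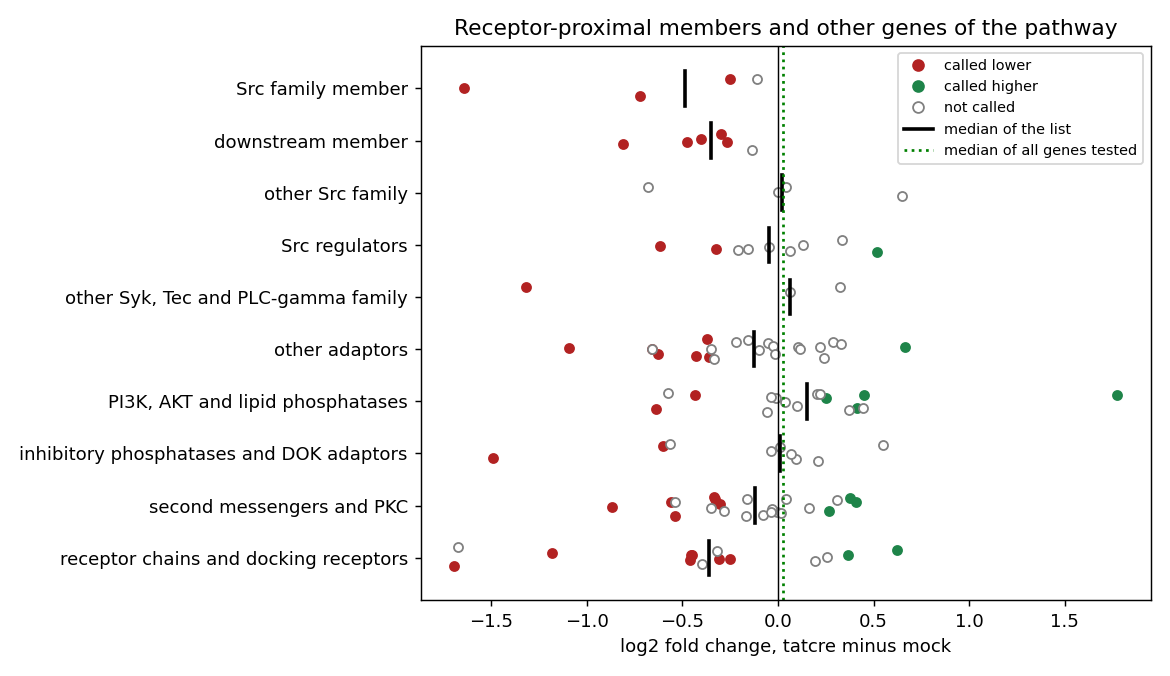
Log2 fold change, tatcre minus mock, of the tested genes of each list (red, called lower; green, called higher; open grey, not called), with the median of each list as a black bar and that of all genes tested, 0.02, as a dotted line; vertical scatter within a row is only for visibility. The Src family and downstream members lie left of 0, at medians of -0.49 and -0.35, while the other lists hold genes on both sides, with medians from -0.36 to 0.15.

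Regulators of Src kinases moved in both directions. Of 9 tested, 2 were called lower and 1 higher. Ptpn22, for a phosphatase that acts on Src family and Syk family kinases, fell 1.54-fold, to 42.3 ± 4 CPM in tatcre against 64.9 ± 4.18 CPM in mock cells (SD, n = 3 each; edgeR adjusted p = 0.00085). Pag1, for a membrane adaptor that holds the inhibitory kinase CSK, fell 1.25-fold (edgeR adjusted p = 0.018). Its call was lost without tatcre 1, tatcre 3 or mock 2 (edgeR adjusted p = 0.0672, 0.0642 and 0.0562). The phosphatase gene Ptpn12 rose 1.43-fold, to 47 ± 3.76 CPM in tatcre against 32.8 ± 2.68 CPM in mock cells (SD, n = 3 each; edgeR adjusted p = 0.0028). Csk itself, with 266 CPM in tatcre and 274 CPM in mock cells, and Ptprc, which encodes the activating phosphatase CD45, with 629 and 603 CPM in the same order, were not called. These 2 were chosen after their values were seen. Without tatcre 1 or without mock 2 the list had 1 gene called lower, and without tatcre 2, without mock 1 or with RLE factors it had 2 called higher. With upper-quartile factors 1 was called lower and 2 higher, and with library size alone 1 lower and 3 higher.

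In the small list of other Syk, Tec and PLCγ family genes, 3 of 6 were tested and 1 was called. Tec, a relative of BTK that is also expressed in B cells, had 6.85, 5.8 and 6.33 CPM in tatcre libraries, against 16.6, 14.2 and 16.7 CPM in mock libraries. Tec fell 2.5-fold (log2 fold change -1.32, SE 0.13, edgeR adjusted p = 5e-05), and its groups did not overlap, whereas Btk was not called. Whether Tec and Btk differed in their change was not tested.

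Of 22 tested adaptors other than Blnk, 6 were called lower and 1 higher. Lcp2, which encodes SLP-76, the relative of BLNK best known from T cells, fell 2.13-fold (edgeR adjusted p = 1.1e-05). It had 62.2, 65.4 and 65.9 CPM in tatcre and 125, 144 and 145 CPM in mock libraries. Sh3bp2, an adaptor that binds SYK and VAV proteins, fell 1.55-fold to 86.9 ± 8.88 CPM in tatcre against 134 ± 3.53 CPM in mock cells (SD, n = 3 each; edgeR adjusted p = 0.0005). Vav1, a guanine nucleotide exchange factor for Rac, fell 1.35-fold (edgeR adjusted p = 0.0053). The gene called higher was Nck2 (log2 fold change 0.67, edgeR adjusted p = 0.018), named after its value was seen. It was lost without tatcre 1, mock 2 or mock 3 (edgeR adjusted p = 0.0848, 0.0644 and 0.0691). The number called higher was 2 without tatcre 2 or without tatcre 3, with RLE factors, with no filter and with DESeq2, and 4 with upper-quartile or library size scaling. Bank1, another B cell adaptor, had 239 CPM in tatcre and 248 CPM in mock cells and was not called, also chosen after its values were seen.

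Of 16 tested genes of the PI3-kinase and AKT list, 4 were called higher and 2 lower, against 10.8% and 16.3% of all genes tested. The list had 2 called higher and 2 lower without mock 2, and 6 higher and 2 lower with upper-quartile or library size scaling. Pik3r3, a regulatory subunit, rose 3.42-fold, with 5.78, 6.64 and 7.3 CPM in tatcre and 1.51, 1.63 and 2.64 CPM in mock libraries (log2 fold change 1.78, SE 0.24, edgeR adjusted p = 0.0004). Pdpk1, which encodes the kinase PDK1 that activates AKT, fell 1.35-fold (edgeR adjusted p = 0.0027), and Pik3r5, a regulatory subunit of the gamma isoform, fell 1.55-fold (edgeR adjusted p = 0.0075). Akt1 and Pik3ca, named after their values were seen, also rose, with log2 fold changes of 0.41 and 0.25. The call of Pik3ca was lost without any single library other than mock 1 (edgeR adjusted p from 0.0664 to 0.164). Pik3ca, for the widely expressed catalytic subunit p110α, thus had a positive and Pik3cd a negative log2 fold change, though neither call held in all settings.

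Among inhibitory phosphatases and DOK adaptors, 2 of 9 tested were called lower. Dok2 fell 2.82-fold, to 2.53 ± 0.353 CPM in tatcre against 7.11 ± 1.51 CPM in mock cells (SD, n = 3 each; edgeR adjusted p = 0.00055). Dok1 fell 1.52-fold (edgeR adjusted p = 0.02), a call lost without mock 1 (edgeR adjusted p = 0.0716), which left 1 gene. With library size alone 1 gene of the list was called higher. Dok1 and Dok2 encode adaptors that bind negative regulators of Ras. Ptpn11, which encodes SHP-2, the relative of SHP-1, had 78.6 CPM in tatcre and 73.5 CPM in mock cells and was not called, chosen after its values were seen.

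Below the phospholipase, 6 of 22 tested second messenger and protein kinase C genes were called lower and 3 higher. Prkcb, the protein kinase C isoform that links the antigen receptor to NF-κB, had 47.6, 50.6 and 46.1 CPM in tatcre and 90.5, 82.5 and 89.9 CPM in mock libraries. It fell 1.82-fold (edgeR adjusted p = 3.8e-05), without overlap. Prkca, for another isoform, fell 1.45-fold (edgeR adjusted p = 0.0012). Malt1, for a protease of the NF-κB pathway, rose, with a log2 fold change of 0.38 (edgeR adjusted p = 0.0048), and Bcl10 was not called, at 50.1 CPM in tatcre and 50.4 CPM in mock cells. These 2 were named after their values were seen. The other rises, of the calcium channel and sensor genes Itpr2 and Stim1, were lost without most single libraries. Itpr2 and Stim1 were also named after their values were seen. Without tatcre 1, tatcre 3, mock 2 or mock 3, 1 gene was called higher, and with library size alone 3 were called lower and 5 higher.

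The receptor chains and docking receptors were 14, of which 7 were called lower and 2 higher. Without mock 2, 4 were called lower and 1 higher. The number called higher was also 1 without mock 3, and it was 4 without mock 1. With upper-quartile or library size scaling 5 were called lower and 4 higher. Cd72 and Fcgr2b encode receptors that engage inhibitory phosphatases, and they fell 2.27-fold and 1.38-fold (edgeR adjusted p = 1.3e-05 and 0.0011). Cr2, for a complement receptor of B cells, fell 3.24-fold to 4.32 ± 1.81 CPM in tatcre against 14 ± 2.08 CPM in mock cells (SD, n = 3 each; edgeR adjusted p = 0.00062). The signaling chain genes Cd79a and Cd79b, named after their values were seen, were not called, with log2 fold changes of -0.32 and 0.19 (edgeR adjusted p = 0.13 and 0.11).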

How the data were processed

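RNA-seq counts of 3 tatcre and 3 mock libraries were used, grouped by sample title; the sample text lists the recombinase for every sample, and titles and series text were followed. The deposited files hold raw counts per Ensembl gene. The tools named for RNA in the submitters' processing notes are Trimmomatic, TopHat2, SAMtools and HTSeq, with build mm10. No version, annotation or strand setting of the counting is given there. Per the labels' protocols the RNA kit keeps strand. The 3 peak files were not used, because their coordinates run past the last genes of GRCm38 chromosomes. Symbols were found for 48349 of 48795 IDs; gene spans were read from RefSeq on GRCm38. Exon lengths and protein sequences were not used here, so levels of different genes were not ranked and the planned shares per length were not made.

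Genes were kept with filterByExpr (minimum count 10, minimum total 15), scaled by TMM and tested with edgeR 4.0.16 (R 4.3.3), adjusted over all genes at 0.05. Library totals were 22729187 to 28230727 counts, and 3 counts correspond to 0.111 to 0.128 CPM. The common biological coefficient of variation was 0.129. SEs came from the quasi-likelihood F statistic. Pair ratios used counts plus 0.5. The test was also run on simulated counts in which few genes changed, with as many rises as falls. The data differ from that setting, so no support is drawn from the run. No 2 libraries agreed within sampling noise (chi-square per degree of freedom at least 7.5). Alternatives were DESeq2 1.42.0, other scalings, no filter, a replicate block and leaving out each library. Members and lists were chosen with earlier results of these data known. Named by rule were the members, Yy1, the tested other Src family genes and the 3 called genes of smallest adjusted p in each list. Frk, which was not tested, and single cell type markers were named outside this rule. Other pathway genes are said to be chosen after their values were seen. Some genes that this rule names are not reported here.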

Additional observations from a re-analysis of the deposited data

How the results depend on the processing

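The log2 fold changes of the 10 members were negative in all 12 alternatives. Blk, Lck, Syk, Blnk and Ptpn6 were called lower in each, and Lyn and Btk in none. Upper-quartile factors ended the calls of Fyn (-0.18) and Pik3cd (-0.20). Library size alone ended those of Fyn (-0.15), Plcg2 (-0.19) and Pik3cd (-0.16), leaving 5 members called lower, 3 of them downstream; it moves the median of all genes to 0.13, and relative to that median these changes are -0.28, -0.32 and -0.29. The replicate block ended the same calls (Fyn -0.25, Plcg2 -0.30, Pik3cd -0.27) and left 5 members, 3 downstream. Over fits without 1 library Fyn ranged from -0.30 to -0.21, Plcg2 from -0.35 to -0.22, Pik3cd from -0.33 to -0.21, and 5 to 7 members were called lower. The cause of these losses was not tested; fits without a library hold fewer samples.

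Over all genes 2536 were called lower and 1679 higher, so 60.2% of calls were falls, against 48.5% with upper-quartile factors and 42% with library size alone (2614 higher). Without 1 library 1960 to 2391 were called lower and 998 to 1681 higher; without tatcre 1 there were 1002 higher and without mock 2, 998. Adding 5 in place of 0.5 to the counts moved each of the 6 Src family pair differences by less than the spread between libraries; pairing by replicate number leaves these differences as they are by construction. The number of members with no overlap was 10, 9, 8 and 7 with TMM, RLE, upper-quartile and library size scaling, the last 3 tried after seeing the data. Deviations of same-numbered libraries were correlated at 0.08, -0.12 and 0.16. Differently numbered libraries were not compared, so these values cannot show whether libraries share a mouse. The replicate block was left out of the reported fit because the labels do not say that the numbers mark mice. Frk had at most 3 counts in a library, so no difference was detectable at this depth. The share per length under another gene length was not run.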
